A study of Homo sapiens with 15 samples.

Results

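The sarcomere genes described here encode titin (TTN), cardiac myosin binding protein C (MYBPC3), 7 proteins of or bound to the Z-disc (ACTN2, LDB3, MYOZ2, TCAP, CSRP3, NEBL and DES) and a myomesin of the M-band (MYOM1). They are 10 of the 48777 genes in the deposited tables and were matched by Ensembl identifier to the symbols of GENCODE release 44. Their levels were followed in H1, an established line of human embryonic stem cells for which the labels name no genetic modification, differentiated towards committed cardiac progenitors (CCPs). The labels give a coating of recombinant laminins LN521 and LN221 for every day, while the deposited sample table lists LN-521 alone for day 0. The Wnt activator CHIR99021 starts the differentiation on day 4 and the Wnt inhibitor IWP2 follows later. Bulk RNA-seq libraries were made on day 0 (undifferentiated cells), day 4, day 9, day 11 and day 20, 3 from each day and 15 altogether. The labels give day 9 where the methods list day 7 for the bulk libraries. The labels and methods call the replicates of a day biological without saying whether they came from separate differentiations, so the p-values measure the spread between these libraries. Replicate numbers after day 0 are plate numbers in the labels, and 1 day 9 library has none. Day 20 replicates 2 and 2_3 both carry plate number 2, so the 3 libraries of that day may not be independent.

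A sarcomere is the unit of contraction between neighbouring Z-discs. Alpha-actinin 2, encoded by ACTN2, crosslinks the thin actin filaments and anchors the amino end of titin at the Z-disc. Titin reaches from the Z-disc to the M-band, where myomesin links it to the thick myosin filaments, and myosin binding protein C sits along those filaments. Desmin, encoded by DES, is an intermediate filament protein that ties Z-discs to each other and to the cell membrane.

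Total counts lay between 11990302 and 33469703 per library. Day 20 replicate 2_3 stood apart, with an RNA integrity number of 6.1 against 8.8 to 10 in the other 14 libraries. Among 174 protein-coding genes with almost no reads on the other days, 100% had a read in this library, with a median of 11.0 reads per kb. That background equalled between 0.259% and 0.802% of the reads per kb of 8 of the sarcomere genes in the same library, 3.93% of those of TCAP and 10.2% of those of DES. In day 0 replicate 3 and day 9 replicate 2, a gene of 57 bases held 20.0% and 17.0% of the TPM (transcript abundance scaled for gene length and library size), which lowers the TPM of every other gene there. Cardiomyocyte identity was checked with 12 markers, including TNNT2, MYH6, MYH7 and NKX2-5. Their summed level was 31.0 to 39.9 TPM on days 0 and 4, 553 to 1982 TPM on day 9, 7122 to 27101 TPM on day 11 and 6746 to 27569 TPM on day 20. The markers TNNT2, TNNI1, MYH6, MYL4, ACTC1 and SLC8A1 are in the study's day 11 signature, which was chosen from bulk data. The rise of the sum between days 9 and 11 is therefore not independent evidence. In bulk RNA, fewer cells of a type and less RNA per cell cannot be told apart.

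Promoter sequences are shown for 5 matched genes that rose together between days 9 and 11. The RefSeq promoter table used here (GRCh38.p14) was matched to 7 of the 10 genes, and promoters of TCAP, CSRP3 and DES were not analysed here. Each sequence is the 250 bases before the annotated start, from 5′ to 3′ on the gene's strand, and capitals mark matches to an E-box (CANNTG), a MEF2 site or a CArG box on either strand. The windows are TTN (chr2:178807424-178807673, minus strand), MYBPC3 (chr11:47352703-47352952, minus strand), MYOZ2 (chr4:119135582-119135831, plus strand), ACTN2 (chr1:236686249-236686498, plus strand) and MYOM1 (chr18:3219969-3220218, minus strand).
TTN: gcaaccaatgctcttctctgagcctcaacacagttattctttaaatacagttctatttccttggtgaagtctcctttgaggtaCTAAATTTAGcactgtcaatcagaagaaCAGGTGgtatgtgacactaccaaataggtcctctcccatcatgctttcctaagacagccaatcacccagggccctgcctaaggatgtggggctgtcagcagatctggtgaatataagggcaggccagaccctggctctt
MYBPC3: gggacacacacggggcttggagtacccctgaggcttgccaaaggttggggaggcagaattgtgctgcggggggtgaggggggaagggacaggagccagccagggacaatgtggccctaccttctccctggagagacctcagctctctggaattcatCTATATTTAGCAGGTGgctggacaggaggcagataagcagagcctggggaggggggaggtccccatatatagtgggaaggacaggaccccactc
MYOZ2: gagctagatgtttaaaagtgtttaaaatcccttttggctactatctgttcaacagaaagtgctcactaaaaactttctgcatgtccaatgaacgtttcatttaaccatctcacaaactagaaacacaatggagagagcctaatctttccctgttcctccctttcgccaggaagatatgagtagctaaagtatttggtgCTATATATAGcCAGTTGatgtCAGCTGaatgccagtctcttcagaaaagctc
ACTN2: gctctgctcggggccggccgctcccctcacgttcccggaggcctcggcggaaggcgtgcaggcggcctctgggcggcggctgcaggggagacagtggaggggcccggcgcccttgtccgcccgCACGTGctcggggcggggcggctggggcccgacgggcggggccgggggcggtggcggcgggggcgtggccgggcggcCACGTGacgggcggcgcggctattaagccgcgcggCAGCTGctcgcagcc
MYOM1: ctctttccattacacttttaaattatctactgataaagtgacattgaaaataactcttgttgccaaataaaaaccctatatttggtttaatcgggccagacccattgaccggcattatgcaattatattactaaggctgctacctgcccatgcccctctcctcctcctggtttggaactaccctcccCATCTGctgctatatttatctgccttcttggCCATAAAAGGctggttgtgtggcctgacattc

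TTN, MYBPC3 and MYOZ2 each held 1 MEF2 site, the binding motif of the myocyte enhancer factor 2 proteins, and 2.8% of the 35116 promoters of this length held one. In MYBPC3 the E-box follows the MEF2 site directly, without overlap. The ACTN2 window held 3 E-boxes and no MEF2 site or CArG box, and 81.6% of its bases were G or C against 39.2% in MYOZ2. A CArG box, the motif bound by serum response factor, stood in the windows of MYOM1 and LDB3 and in 1.16% of all promoters. An E-box was found in 6 of the 7 genes and in 61.8% of all promoters. The motifs TATAAA (10.7% of all promoters) and CATTCC (11.9%) were absent from the windows of these genes. The GATA motif NGATAA was held by 3 of the 7 genes and by 20.4% of all promoters. The motif NAAGTG, of the NKX2-5 type, was held by 3 genes and 37.5% of all promoters. NEBL had 5 windows and LDB3 had 2, and a gene was counted when any of its windows held the motif. The shares of all promoters count single windows, so the gene counts and these shares are not directly comparable. In NEBL the GATA motif stood in the last of the 5 windows alone. A CAAGTG counts under both NAAGTG and the E-box. The RefSeq starts of TTN and ACTN2 lie inside the gene bounds of GENCODE, so these windows belong to 1 of several annotated starts.

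**Figure D1:**
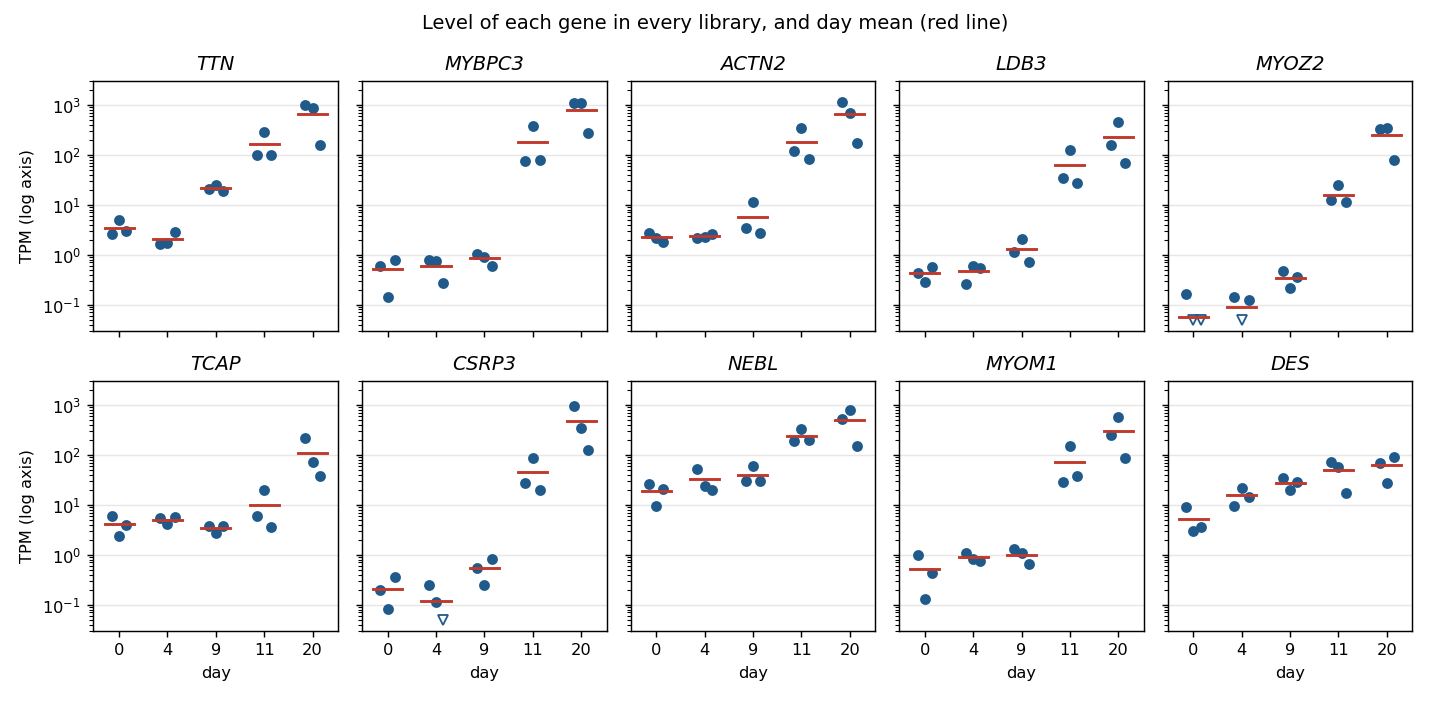
TPM of the 10 genes in each of the 15 libraries by day (points; log axis), with the mean of the 3 libraries of a day as a red line. Open triangles at the foot of the axis mark libraries with 0 counts (MYOZ2 in 3 libraries, CSRP3 in 1). The highest mean of each gene was on day 20, and MYBPC3 rose from 0.847 TPM on day 9 to 179 TPM on day 11.

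TTN, on chromosome 2 of GRCh38 from 178525989 to 178830802 on the minus strand, encodes the largest known human protein, which acts as a spring and a ruler of the sarcomere. It stood at 2.55, 4.94 and 2.94 TPM in day 0 replicates 1, 2 and 3, and at 1.66, 1.73 and 2.86 TPM on day 4 in replicates 1, 2 and 5. On day 9 its level was 19.1 TPM in the unnumbered replicate, 20.4 TPM in replicate 2 and 25.1 TPM in replicate 6_1. Every day 9 library was thus above every earlier one, with a coefficient of variation of 14.7%. On day 11 TTN was at 97.3, 290 and 98.8 TPM in replicates 2, 5 and 6, and on day 20 at 983, 861 and 157 TPM in replicates 2, 2_3 and 6_1. The mean was 162 ± 111 TPM on day 11 and 667 ± 446 TPM on day 20 (SD, n = 3 each), and the libraries of these days overlapped. The antisense gene TTN-AS1 and TTN share exon bases on opposite strands, 11.8% of those of TTN, and it is not stated whether counting used the strand, so reads there cannot be assigned with certainty.

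MYBPC3, on chromosome 11 from 47331406 to 47352702, encodes the thick-filament protein that tunes the interaction of myosin with actin. It lay between 0.140 and 1.04 TPM in all 9 libraries of days 0, 4 and 9, with between 5 and 28 counts per library. Day 11 brought it to 76.8, 383 and 78.3 TPM in replicates 2, 5 and 6. On day 20 it reached 1074 TPM in replicate 2, 1077 TPM in replicate 2_3 and 271 TPM in replicate 6_1. Its day 20 mean of 807 ± 465 TPM (SD, n = 3) was the highest of the 10 genes and ranked 107th among all genes of that day, while its day 9 mean ranked 25497th.

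ACTN2, on chromosome 1 from 236664141 to 236764631, is a gene the study placed in its day 11 signature from these libraries, so its rise is not independent evidence. It stood between 1.77 and 2.69 TPM in the 6 libraries of days 0 and 4. On day 9 it was at 2.72 TPM in the unnumbered replicate, 3.37 TPM in replicate 2 and 11.3 TPM in replicate 6_1, so the day 9 mean of 5.80 ± 4.79 TPM (SD, n = 3) rested largely on 1 library. On day 11 it reached 119, 343 and 82.0 TPM in replicates 2, 5 and 6, and on day 20 it reached 1144, 680 and 174 TPM in replicates 2, 2_3 and 6_1. LDB3, on chromosome 10 from 86666785 to 86736072, encodes a PDZ and LIM domain protein that binds alpha-actinin 2. It was between 0.253 and 0.603 TPM on days 0 and 4, at 0.730, 1.12 and 2.06 TPM on day 9, at 34.8, 123 and 27.6 TPM on day 11 and at 161, 445 and 68.9 TPM on day 20, in the same replicate order. Of the exon bases of LDB3, 16.4% are shared with another annotated gene on the same strand, so its counts are uncertain to that extent.

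MYOZ2, on chromosome 4 from 119135832 to 119187789, encodes calsarcin-1, which binds calcineurin and alpha-actinin at the Z-disc. It had 3, 0 and 0 counts in the day 0 libraries, 3, 0 and 2 on day 4, and 7, 6 and 3 on day 9 (unnumbered, 2 and 6_1). A count of 0 allows up to 3 counts, for counting error only, so its levels on days 0 and 4 could not be told from 0 at this depth. Its day 11 levels were 12.3, 24.6 and 11.1 TPM in replicates 2, 5 and 6, and its day 20 levels were 331, 348 and 77.2 TPM in replicates 2, 2_3 and 6_1. CSRP3, on chromosome 11 from 19182030 to 19210571, encodes muscle LIM protein, a Z-disc protein that has been linked to mechanical sensing. It had between 0 and 3 counts per library on days 0 and 4 and 9, 4 and 2 counts on day 9. It then reached 27.0, 88.3 and 19.4 TPM on day 11 and 948, 350 and 123 TPM on day 20. For both genes every day 20 library was above every day 11 library.

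TCAP, on chromosome 17 from 39665349 to 39666554, encodes telethonin, which caps the amino end of titin at the Z-disc. Through day 9 it stayed under 6 TPM, at 2.32 to 5.98 TPM on day 0, 4.11 to 5.65 TPM on day 4 and 2.76 to 3.72 TPM on day 9. On day 11 it was at 6.02, 19.7 and 3.54 TPM in replicates 2, 5 and 6, of which replicate 6 was within the day 9 range. On day 20 it was at 219, 71.0 and 37.4 TPM in replicates 2, 2_3 and 6_1, each above every earlier library. The gene length implied by the deposited TPM was 2.12 kb for TCAP against 0.96 kb of exons in GENCODE, so its TPM is low relative to that annotation. The implied length of ACTN2 was 5.53 kb against 17.9 kb.

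NEBL, on chromosome 10 from 20779973 to 21293011, encodes nebulette, a cardiac relative of nebulin that binds thin filaments at the Z-disc. It had the highest mean of the 10 genes on days 0, 4, 9 and 11, at 18.7 ± 8.31 TPM on day 0, 40.0 ± 18.3 TPM on day 9 and 240 ± 76.2 TPM on day 11 (SD, n = 3 each). It was at 191, 328 and 202 TPM on day 11 and at 516, 804 and 149 TPM on day 20, so that its lowest day 20 library lay below every day 11 library. MYOM1, on chromosome 18 from 3066807 to 3219968, was between 0.128 and 1.29 TPM in the 9 libraries of days 0, 4 and 9. It then stood at 28.3, 148 and 37.3 TPM on day 11 and at 251, 570 and 85.8 TPM on day 20.

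DES, on chromosome 2 from 219418377 to 219426735 from the plus strand, had the smallest ratio of the day 20 to the day 0 mean among the 10 genes. Its mean was 5.29 ± 3.39 TPM on day 0, 15.3 ± 6.31 TPM on day 4, 27.3 ± 7.33 TPM on day 9, 48.7 ± 28.3 TPM on day 11 and 62.3 ± 32.1 TPM on day 20 (SD, n = 3 each). The libraries of each pair of neighbouring days overlapped except those of days 0 and 4, where the lowest day 4 value of 9.56 TPM was just above the highest day 0 value of 9.19 TPM. On day 20 its mean was the lowest of the 10 genes.

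The order of onset depended on the level asked for. At 1 TPM or more in all 3 libraries of a day, TTN, ACTN2, TCAP, NEBL and DES were already present on day 0, and MYBPC3, LDB3, MYOZ2, CSRP3 and MYOM1 reached that level on day 11. At 5 TPM the order was NEBL on day 0, DES on day 4, TTN on day 9, the 6 genes MYBPC3, ACTN2, LDB3, MYOZ2, CSRP3 and MYOM1 on day 11, and TCAP on day 20. An order by a fixed level depends on the gene length behind each TPM. That length was 2.12 kb against 0.96 kb in GENCODE for TCAP, and 5.53 kb against 17.9 kb for ACTN2. The places of TCAP and ACTN2 by a fixed level are therefore uncertain. By the first day on which every library was above every earlier library, DES came on day 4, TTN, ACTN2, LDB3 and MYOZ2 on day 9, MYBPC3, CSRP3, NEBL and MYOM1 on day 11, and TCAP on day 20. MYOZ2 entered on day 9 at 3 to 7 counts per library, against 0 to 3 on days 0 and 4, so that step was small in absolute terms.

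As a share of the highest day mean, which was day 20 for each of the 10 genes, the median over the genes was 0.725% on day 9 and 23.9% on day 11. DES had reached 78.2% and NEBL 49.0% of the day 20 mean by day 11. LDB3, ACTN2, TTN, MYOM1 and MYBPC3 lay between 22.2% and 27.5%. CSRP3 (9.48%), TCAP (8.93%) and MYOZ2 (6.35%) had lower shares. These shares moved with the scaling and with single libraries. With TMM-scaled RPKM in place of TPM they ran from 28.7% (MYBPC3) to 41.2% (LDB3) for the former genes, with CSRP3 at 10.9%, TCAP at 10.1% and MYOZ2 at 8.36%. With medians of TPM in place of means MYBPC3 was at 7.29%, below CSRP3 (7.70%) and TCAP (8.49%), and TTN was at 11.5%, MYOM1 at 14.8%, ACTN2 at 17.5% and LDB3 at 21.7%. On day 9 TTN was at 3.23% of its day 20 mean, while MYBPC3 was at 0.105%.

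**Figure D2:**
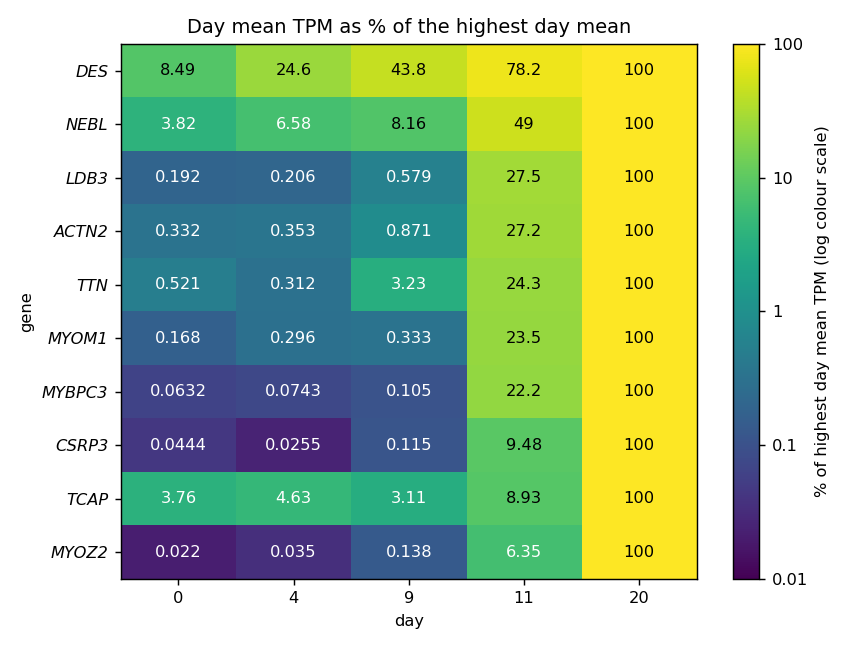
Mean TPM of each day (columns) as a percent of the highest day mean of the same gene (rows, ordered by the day 11 share; log colour scale; each mean is over 3 libraries). Day 11 shares ran from 6.35% for MYOZ2 to 78.2% for DES, and day 9 shares were under 4% for all but DES and NEBL.

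Successive days were compared with edgeR's quasi-likelihood test on the counts, and a gene was called at a Benjamini-Hochberg adjusted p under 0.05, taken over every gene in the fit. The comparison of day 4 with day 0 covered the culture up to the day on which CHIR99021 is added. Of the 8 sarcomere genes with enough counts to be tested, 0 passed, as did 0% of all 20964 genes. At an unadjusted p-value under 0.05, 741 genes and 2 of the 8, TTN and DES, differed. DESeq2 and limma called 0 genes as well, while edgeR without the filter on low counts called TTN and DES among 64 genes. The fitted log2 fold change of DES was 1.49 (SE 0.43, adjusted p = 0.885) and that of TTN −0.81 (SE 0.29, adjusted p = 0.885). DES was the 1 gene whose day 4 libraries all lay above the day 0 libraries, against 5.72% of all genes.

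Between days 4 and 9, TTN and LDB3 rose, 2 of 8 tested, where 24.3% of all 21252 genes were called higher. The fold of TTN was 10.5 (log2 fold change 3.39, SE 0.23, adjusted p = 1.61e-05) and that of LDB3 was 2.83 (SE 0.44 on the log2 scale, adjusted p = 0.0213). The share of the sarcomere genes called was thus close to the background of this step, in which 24.7% of genes were called lower. Of the 8 tested, the libraries of TTN, ACTN2 and LDB3 did not overlap and were higher on day 9, against 28.8% of all genes tested. Those of TCAP did not overlap and were lower (log2 fold change −0.55, SE 0.26, adjusted p = 0.111). The libraries of MYOZ2, which was not tested, were higher too, at 3 to 7 counts on day 9 against 0 to 3 on day 4. ACTN2 missed the threshold (log2 fold change 1.27, SE 0.48, adjusted p = 0.0611). MYOZ2 and CSRP3 had too few counts to be tested in this step and in the one before. TTN was called with each of the 6 libraries left out in turn, with log2 fold changes between 3.25 and 3.67. LDB3 was no longer called without day 4 replicate 1, day 4 replicate 5 or day 9 replicate 6_1. Within the 3 sequencing lanes that held both days, the day 9 library exceeded the day 4 library by 3.09 to 3.66 for TTN on the log2 CPM scale.

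Between days 9 and 11, 8 of the 10 genes rose, where 1.39% of all 20679 genes were called higher. The median log2 fold change was 5.19 for the 10 genes and 0.00449 for all genes. MYBPC3 rose 204-fold (log2 fold change 7.67, SE 0.86, adjusted p = 0.0147). CSRP3 (log2 fold change 6.20), MYOM1 (6.09), LDB3 (5.53), MYOZ2 (5.43) and ACTN2 (4.94) followed, with standard errors between 0.49 and 0.78. TTN, which had already risen by day 9, gained a further 7.21-fold (log2 fold change 2.85, SE 0.46), and NEBL, which began highest, gained 5.87-fold (log2 fold change 2.55, SE 0.33). The adjusted p-values of the 8 genes from edgeR lay between 0.0103 and 0.0277. TCAP (log2 fold change 1.44, SE 0.61, adjusted p = 0.292) and DES (0.75, SE 0.49, adjusted p = 0.505) did not pass. The libraries of the 8 genes did not overlap between the days, against 11.2% of all genes higher in this way.

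The calls of this step depended on the day 9 libraries. Without day 9 replicate 2, edgeR called 0 of the 10 genes and 0 of all genes, with 8 of the 10 and 2366 of all genes at an unadjusted p-value under 0.05. Without the unnumbered day 9 replicate MYOZ2 alone of the 10 was called, where 20 of all 21433 genes were called higher. In that fit 8 of the 10 and 2651 of all genes had an unadjusted p-value under 0.05. TTN was also lost without day 9 replicate 6_1 (log2 fold change 2.91, adjusted p = 0.0519) and ACTN2 without day 11 replicate 2 (log2 fold change 5.17, adjusted p = 0.0600). The sizes also depended on day 11 replicate 5. Without it the log2 fold change was 6.50 for MYBPC3, 5.28 for CSRP3, 5.01 for MYOM1, 4.57 for LDB3, 4.12 for ACTN2 and 2.15 for TTN, each still called. That of ACTN2 was 5.77 without day 9 replicate 6_1. Over the 6 fits that left out a library, NEBL ranged from 2.28 to 2.91 and MYOZ2 from 5.00 to 5.69. Within lanes 1, 2 and 5, the median difference over the 10 genes was 5.86, 3.37 and 4.58 on the log2 CPM scale, with a positive difference for 10, 9 and 10 genes.

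**Figure D3:**
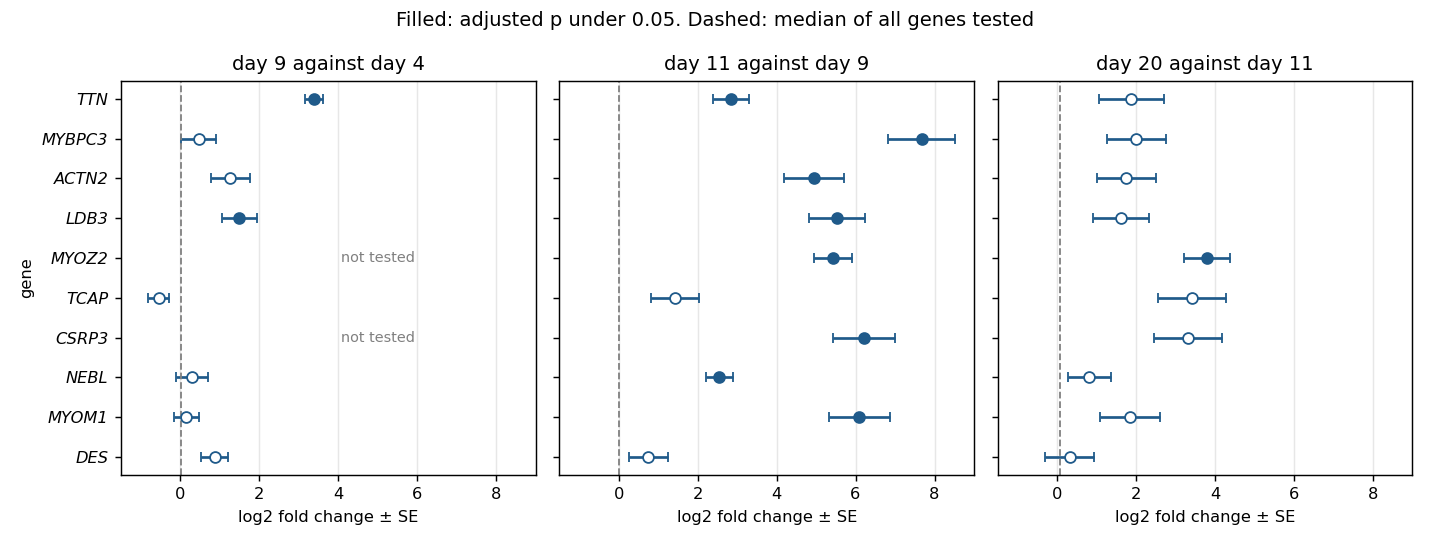
Log2 fold change with its standard error for each of the 10 genes in the 3 later steps of the time course (edgeR, 3 libraries against 3). Filled points passed an adjusted p of 0.05 and the dashed line is the median of all genes tested; TTN and LDB3 passed first, 8 genes passed between days 9 and 11, and MYOZ2 passed between days 11 and 20.

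Between days 11 and 20, MYOZ2 rose 14.0-fold (log2 fold change 3.80, SE 0.59, adjusted p = 0.0292), 1 of 10 genes where 1.12% of all 21398 genes were called higher. All 10 fitted log2 fold changes were positive. An unadjusted p-value under 0.05 was reached by 7 of the 10 and by 3564 of all 21398 genes. TCAP had a log2 fold change of 3.42 (SE 0.85, adjusted p = 0.0938) and CSRP3 of 3.31 (SE 0.86, adjusted p = 0.102). These were the 3 genes whose libraries did not overlap, against 7.97% of all genes higher in this way. For MYBPC3, TTN, MYOM1, ACTN2 and LDB3 the log2 fold changes lay between 1.61 and 2.01, with standard errors between 0.71 and 0.82. NEBL (0.81, SE 0.55) and DES (0.32, SE 0.62) had the smallest values. MYOZ2 was called in 1 of the 6 fits that left out a library, the one without day 20 replicate 6_1. Without day 20 replicate 2_3 its log2 fold change was 3.68 (adjusted p = 0.0528), and 0 of the 10 genes were called, where 355 of all 21682 genes were higher.

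The step from day 11 to day 20 differed between sequencing lanes. In lane 5 (replicate 2 on both days) and lane 2 (day 20 replicate 2_3 against day 11 replicate 6), the median difference over the 10 genes was 3.26 and 2.81 on the log2 CPM scale, with DES as the 1 gene below 0 in each. In lane 1 (day 20 replicate 6_1 against day 11 replicate 5) the median was −0.67, and TTN, MYBPC3, ACTN2, LDB3, NEBL and MYOM1 were below 0. MYOZ2, TCAP and CSRP3 were above 0 in all 3 lanes, at 1.61, 0.89 and 0.44 in lane 1. Lane and replicate cannot be told apart within a day, since each lane held 1 library of each of these days. With the lane as a term in the fit, 0 of the 10 genes were called between days 11 and 20, where 102 of all 21398 genes were higher. Between days 9 and 11 that fit called 8 of the 10, where 425 of all 20679 genes were higher.

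**Figure D4:**
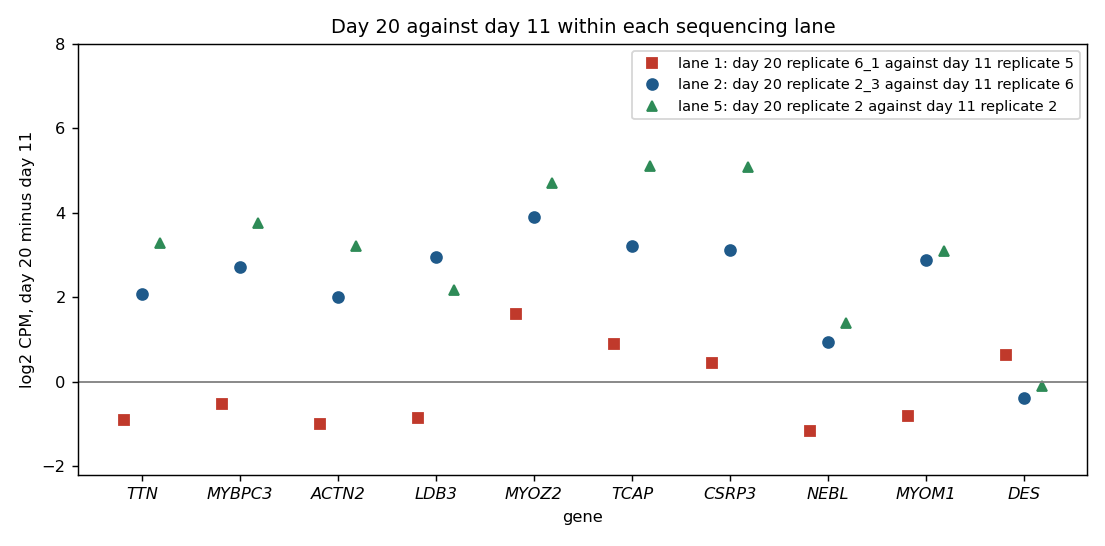
Difference in log2 CPM between the day 20 and the day 11 library of the same sequencing lane for each of the 10 genes (1 library against 1, no error). In lanes 2 and 5 all genes but DES lay above 0, and in lane 1 MYOZ2, TCAP, CSRP3 and DES did.

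Over the whole course, from day 0 to day 20, 10 of 10 genes rose, where 16.1% of all 21988 genes were called higher. The adjusted p-values from edgeR lay between 0.000339 and 0.00606, and all 10 were called with each library left out in turn, replicate 2_3 included. The libraries did not overlap for any of the 10, against 18.7% of all genes higher in this way. The folds of DES (10.8, log2 fold change 3.43, SE 0.63), NEBL (20.5) and TCAP (23.3) were the lowest of the 8 genes given here. TTN rose 156-fold, ACTN2 254-fold, LDB3 403-fold, MYOM1 469-fold and MYBPC3 1343-fold (log2 fold change 10.39, SE 0.93). Without day 20 replicate 2 the log2 fold change fell from 4.54 to 3.29 for TCAP, close to that of DES in the same fit (3.26), from 7.99 to 7.09 for ACTN2 and from 7.28 to 6.64 for TTN. It was 7.99 for LDB3 without day 20 replicate 2_3 and 9.60 for MYOM1 without day 0 replicate 1. MYOZ2 and CSRP3 had 3 counts or fewer in each day 0 library, so no fold is given for them. This comparison shares its libraries with the steps above.

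On days 11 and 20, the same library stood at one end of the order for most of the genes. Day 11 replicate 5 was the highest of its day for 9 of 10 genes, against 38.6% of the 17922 genes with at least 1 CPM, by 1.67 times (NEBL) to 4.94 times (MYBPC3) the mean of the other libraries. In TPM, day 20 replicate 6_1 was the lowest of its day for 9 of 10 genes, against 37.1% of genes, and the mean of the other libraries was 3.87 times (TCAP) to 5.86 times (TTN) its level. DES was the exception on both days, highest in replicate 2 on day 11 and in replicate 6_1 on day 20. In TMM-scaled CPM, TCAP was lowest in day 20 replicate 2_3, at 19.9 against 20.1 in replicate 6_1. The TMM factor of replicate 2_3 was 1.90, against 0.870 to 1.04 in the other libraries.

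Markers of cell types also differed between these libraries. The 12 cardiomyocyte markers summed to 27101 TPM in day 11 replicate 5, against 9163 and 7122 TPM in replicates 2 and 6. On day 20 they summed to 26043, 27569 and 6746 TPM in replicates 2, 2_3 and 6_1. The 6 fibroblast and mesenchymal markers, led by COL3A1, summed to 1268 TPM in day 11 replicate 5 against 2998 and 6202 TPM, and to 21812 TPM in day 20 replicate 6_1 against 2533 and 1164 TPM. PDGFRA went the other way on day 11, at 282 TPM in replicate 5 against 209 and 161 TPM in replicates 2 and 6. The other markers of this list were lowest in replicate 5 on that day. The 6 endoderm markers, led by AFP and APOA1, summed to 20215 TPM in day 20 replicate 6_1, 17085 TPM in replicate 2 and 652 TPM in replicate 2_3. AFP, APOA1, APOA2 and TTR were highest in replicate 6_1. FOXA2 and SOX17 were highest in replicate 2, at 63.7 and 10.2 TPM against 14.8 and 4.99 TPM in replicate 6_1. The 6 smooth muscle markers summed to 563 to 1039 TPM on day 11 and 330 to 479 TPM on day 20. No gene of the endoderm, fibroblast or smooth muscle list was at 0 counts in any library of these days. The 7 skeletal muscle genes summed to 52.1 to 309 TPM on day 11 and 124 to 1016 TPM on day 20, nearly all of it CKM, and MYOD1 had 0, 59 and 4 counts in day 20 replicates 2, 2_3 and 6_1. The 6 pluripotency markers summed to 4624 to 6651 TPM on day 0 and 66.6 to 108 TPM on day 20. The part of cell composition in the differences between libraries was not tested.

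Each gene was also expressed per 1000 TPM of the summed cardiomyocyte markers of its own library. On day 11 the median coefficient of variation over the 10 genes was 81.0% in TPM and 22.3% on this scale, smaller for 8 genes. On day 20 it was 69.9% in TPM and 37.0% on this scale, smaller for 9 genes. MYBPC3 stood at 41.3, 39.0 and 40.2 per 1000 marker TPM in the 3 day 20 libraries, a coefficient of variation of 2.75% against 57.5% in TPM, and MYOZ2 at 12.7, 12.6 and 11.4. DES went the other way, with 119% on day 20 against 51.5% in TPM. The marker sum was itself highest in day 11 replicate 5 and lowest in day 20 replicate 6_1, as most of these genes were. A smaller spread is built into a ratio of values that share this order. The share over all genes was not computed, and the cause was not tested.

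Relative to these markers, 8 of the 10 genes were higher in every day 20 library than in every day 11 library, against 4.15% of all genes. MYOZ2 was 9.65 times higher on day 20, from 1.27 to 12.3 per 1000 marker TPM, TCAP was 8.79 times higher and CSRP3 7.54 times higher. MYBPC3 (3.60 times), MYOM1 (3.12 times), LDB3 (2.67 times), TTN (2.62 times) and ACTN2 (2.54 times) followed. The libraries of NEBL (1.16 times) and DES (1.38 times) overlapped between the days. With TNNT2 alone as the reference, or with the markers other than MYH6 and ACTC1, the count was again 8, and MYOZ2 was 7.51 and 7.92 times higher. The ratio of NEBL turned to 0.86 and 0.95 under these references, and that of DES was 1.02 and 1.06. This scale was chosen after the values were seen and carries no test.

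**Figure D5:**
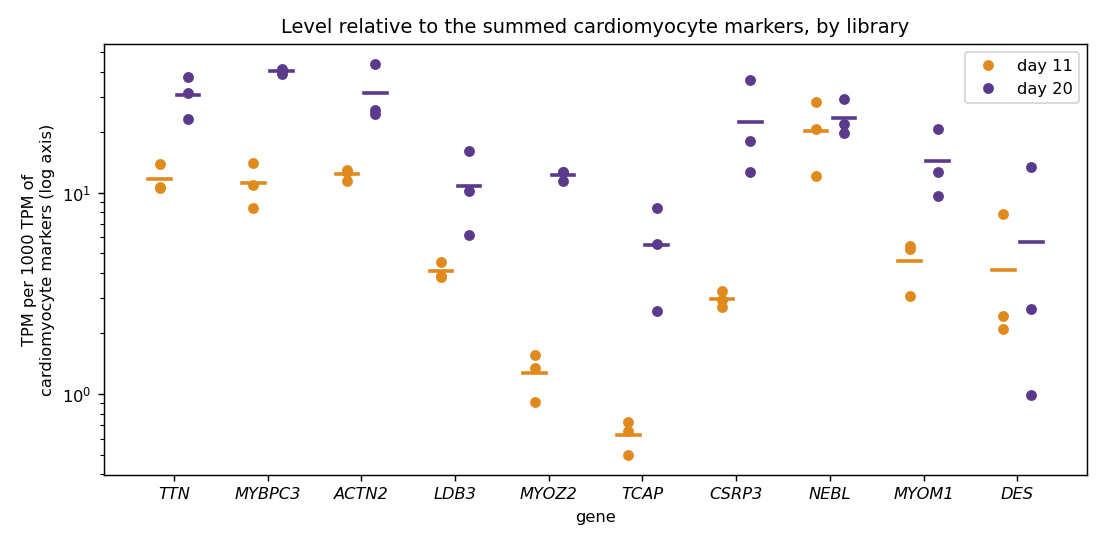
TPM of each gene per 1000 TPM of 12 summed cardiomyocyte markers, for the 3 libraries of day 11 (orange) and of day 20 (purple), with the mean of each day as a bar (log axis). For 8 genes every day 20 library lay above every day 11 library, from 2.54 times for ACTN2 to 9.65 times for MYOZ2 by the means, and for NEBL and DES the days overlapped.

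A further 55 genes came from lists of Z-disc, M-band, titin-like, titin-binding, myosin binding protein and intermediate filament families. Of these, 9 of 48 tested rose between days 9 and 11 and 0 fell, where 1.39% of all genes were called higher. The 9 genes were PDLIM5 (log2 fold change 2.33), a PDZ-LIM relative of LDB3, the myomesin MYOM2 (4.08), the titin-binding ubiquitin ligases TRIM55 (2.15) and TRIM63 (3.45), and the Z-disc proteins SYNPO2 (3.53), SYNPO2L (3.25), XIRP1 (4.52), NEXN (2.23) and SORBS2 (5.18). The standard errors ran from 0.27 to 0.82, and edgeR's adjusted p-values from 0.0147 to 0.0432. Without day 9 replicate 2 edgeR called 0 of all genes, so the 9 calls were lost in that fit. MYOM2 stood at 22.0 ± 17.8 TPM on day 11 and 8.29 ± 1.84 TPM on day 20 (SD, n = 3 each), with overlapping libraries (log2 fold change −1.54, SE 0.56, adjusted p = 0.213).

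Between days 4 and 9, 16 of 46 tested genes of these families rose and 14 fell, where 24.3% of all genes were called higher and 24.7% lower. TRIM55 rose from 0.272 to 33.7 TPM and ANKRD1, which encodes a titin-binding ankyrin repeat protein, from 0.861 to 470 TPM. FLNC, which encodes filamin C, rose from 50.8 to 288 TPM. Relatives of the sarcomere genes went both ways. Those that rose included CSRP1 (log2 fold change 2.08), MYOM2 (1.43), PDLIM7 (1.12), PDLIM4 (0.91) and PDLIM5 (0.49). Those that fell included MYBPC2 (12.2 to 1.68 TPM), NEB (6.96 to 0.603 TPM), ACTN1 (log2 fold change −1.04), MYOZ1 (16.3 to 8.28 TPM) and PDLIM3 (8.64 to 1.98 TPM), which encode skeletal or non-muscle forms and a PDZ-LIM protein.

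Between days 11 and 20, 4 of 52 tested genes rose, namely MYPN (log2 fold change 5.73, SE 0.78), which encodes myopalladin, TRIM63 (4.24, SE 0.67), SYNPO2 (3.33, SE 0.62) and PDLIM3 (1.96, SE 0.34), and 0 fell, where 1.12% of all genes were called higher. With day 11 replicate 2, 5 or 6 left out, edgeR called 0 of all genes higher, so the 4 calls were lost in each of these fits. From day 0 to day 20, 32 of 51 tested genes rose and MYOZ3 fell, where 16.1% of all genes were called higher. Relatives of the 10 genes ended at other levels in several families, but not in all. On day 20 PDLIM5 was at 270 TPM and PDLIM1 at 220 TPM against 225 TPM for LDB3, while the other PDZ-LIM genes listed were lower. On day 20 MYBPC1 was at 1.58 TPM and MYBPC2 at 5.13 TPM against 807 TPM for MYBPC3, MYOZ1 was at 7.56 TPM and MYOZ3 at 4.86 TPM against 252 TPM for MYOZ2, and NEB was at 2.91 TPM against 489 TPM for NEBL. The non-muscle alpha-actinins ACTN1 and ACTN4 were above ACTN2 on day 0, at 114 and 111 TPM against 2.21 TPM, and below it on day 20, at 71.4 and 130 TPM against 666 TPM. Among LIM proteins, CSRP1 was at 20.1 TPM and CSRP2 at 205 TPM on day 20 against 474 TPM for CSRP3.

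The 8 other genes whose profile over the 15 libraries was most like the mean profile of the 10 genes were CKM, FITM1, KLHL31, SRL, RXRG, CTNNA3, PPP1R3A and PDLIM5, with Pearson's r from 0.990 to 0.980 among 12443 genes. CKM encodes muscle creatine kinase, SRL encodes sarcalumenin of the sarcoplasmic reticulum and CTNNA3 encodes a catenin of the intercalated disc. CKM rose from 2.72 TPM on day 9 to 137 TPM on day 11 and 577 TPM on day 20. The 15 libraries share the 5 days, so these values describe a common time course. With log2(TPM + 1) in place of log2 CPM 4 of the 8 names were shared, and with Spearman's rho none was. Among the 10 genes themselves, 8 had an r of 0.949 to 0.988 with the mean profile, which includes them, TCAP had 0.833 and DES had 0.712.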

How the data were processed

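The 10 genes and the gene lists were chosen with earlier results of these data known. The authors sequenced ribosome-depleted total RNA (150-base read pairs), aligned it to GRCh38 (Ensembl release 79) with STAR 2.5.2b and deposited raw counts per gene from featureCounts 1.5.1, without ribosomal and mitochondrial genes. They also deposited TPM per library, computed with gene lengths that are not stated. The deposited sample table gives the RNA integrity score, the fraction of reads mapped uniquely and the sequencing lane.

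For each pair of days, the counts of their 6 libraries were tested in edgeR 4.0.16 (R 4.3.3; TMM, filterByExpr at min.count 10 and min.total.count 15, robust quasi-likelihood test, two-sided), adjusted over all genes tested. The standard error is the log2 fold change divided by the square root of F. Genes named are these 10, genes of the written lists past the threshold, their relatives and the 8 most alike genes with at least 10 CPM on any day; not each is named. Alternatives were DESeq2 1.42.0, limma 3.58.1 on log2 TPM, other scalings and filters, all 15 libraries in one fit, replicate and lane blocks and each replicate left out. Depth and the number of replicates set the precision; reads carry no molecular identifiers. Coordinates come from GENCODE release 44. Single-cell libraries were not used here.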

Additional observations from a re-analysis of the deposited data

How the results depend on the processing

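Counts of sarcomere genes called changed with the setting as follows, and counts over all genes changed too. From day 0 to day 4 the count was 0, and it was 2 (TTN and DES, among 64 genes) with no filter on low counts. From day 4 to day 9 the count of 2 became 4 with DESeq2 (5119 of all genes higher, from 5162). With all 15 libraries in one fit it was 1 (2939 higher). It was 1 to 3 with each replicate left out (4154 to 5252 of all genes higher). At an unadjusted p under 0.05 it was 4 of the 8 tested, where 11917 of all 21252 genes passed. From day 9 to day 11 the count of 8 became 3 with no filter on low counts, where all genes called higher went from 288 to 553. With each replicate left out the count was 0 to 8, and 0 to 287 of all genes were called higher. From day 11 to day 20 the count of 1 became 4 with DESeq2, 4 with all 15 libraries in one fit and 0 with the lane block. All genes called higher were 239 at first, then 1305, 2078 and 102. With each replicate left out the count was 0 to 1, and 0 to 355 of all genes were higher. At an unadjusted p under 0.05, a threshold chosen after seeing the data, it was 7, where 3564 of all 21398 genes passed. From day 0 to day 20 the count was 10 under every alternative run, where 1828 to 6279 of all genes were called higher. From day 0 to day 4, 7 of the 8 fitted differences were positive, and 3 to 7 were with each replicate left out, 3 without day 0 replicate 2. In the later steps 4 fitted differences changed sign, none of them called: between days 4 and 9 NEBL (−0.046 to 0.87 over the fits that left out a replicate, lowest without day 9 replicate 6_1) and MYOM1 (−0.095 to 0.42, lowest without day 9 replicate 2), and between days 11 and 20 DES (−0.14 to 0.74, negative without day 11 replicate 6, at −0.085, and without day 20 replicate 6_1). The number of genes first at 1 TPM on day 11 was 5, and it was 2 at 0.5 TPM. At 1 TMM-scaled RPKM, ACTN2 joined the 5 genes on day 11. The causes were not tested.

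Whether a shared plate number marks the same differentiation is not stated. Deviations of same-numbered libraries correlated at 0.18 and 0.21 between days 0 and 4, where the day 0 numbers are not called plates. The values were −0.040 between days 4 and 9, 0.11 and 0.34 between days 9 and 11, and −0.14 to 0.36 between days 11 and 20. With 3 libraries per day they cannot settle whether libraries are paired, so the main fits used no pairs. With a replicate block the count of calls was 3 from day 0 to day 4 (TTN, DES and NEBL, among 409 of 20964 genes), 7 from day 9 to day 11 (among 1971 of 20679) and 0 from day 11 to day 20 (3 of 21398). In the middle step ACTN2 was not called (log2 fold change 3.88, edgeR adjusted p = 0.281). The block was not fitted for the steps with fewer than 2 shared numbers. Depth limits MYOZ2 and CSRP3 before day 11.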
